A study of Caenorhabditis elegans with 8 samples.

Results

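The dhs genes of Caenorhabditis elegans encode short-chain dehydrogenases, and 30 genes with a symbol of the form dhs-number were found among the 46244 gene identifiers of the deposited tables. They were chosen by symbol alone, after each identifier had been matched by sequence name to the annotation of build WBcel235. The RNA came from whole worms of the strain that the labels name for the cuticle collagen gene col-121, with no allele stated. Late L4 larvae were exposed for 24 hours to DEET, an insect repellent, dissolved in DMSO (4 samples), or to DMSO alone (4 samples). The DMSO control was at 0.1%, and the 0.1 M given for DEET is not said to be a stock or a final concentration. Each sample pooled 1000 worms, so a level is an average over all tissues, and fewer cells of a type cannot be told apart from less RNA per cell. A number from 1 to 4, marked as pair and batch, joins each DEET sample to a DMSO sample.

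Short-chain dehydrogenases are a large enzyme superfamily that uses NAD or NADP to oxidise alcohol groups or to reduce carbonyl groups. Their substrates include steroids, retinoids, fatty acyl groups, sugars and foreign compounds, and carbonyl reduction by such enzymes is a step in the handling of many drugs and pesticides. In the worm a few dhs genes have a worked-out role: DHS-3 coats lipid droplets of the intestine, DHS-16 acts in the synthesis of the steroid hormone dafachronic acid, DHS-21 reduces dicarbonyl compounds and L-xylulose, and DHS-28 works in the peroxisome to shorten the side chains of ascaroside pheromones. For most of the others no substrate is stated here.

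The libraries held 45987026 to 50295321 counts in DEET and 44437681 to 50155299 in DMSO. The share of ribosomal RNA was 5.99% to 12.1% in DEET and 3.91% to 10.9% in DMSO, and pair 4 had the highest share in both treatments. Markers of muscle, pharynx, intestine, epidermis, neurons, germline, oocytes and sperm were above 0 in every library. The 3 oocyte markers summed to 805 TPM (DEET) and 661 TPM (DMSO) in pair 4, against 1272 to 1362 TPM over both treatments in pairs 1 to 3, and the 3 germline markers to 648 and 548 TPM against 939 to 998 TPM. The 3 neuron markers summed to 236 and 217 TPM in pair 4 against 242 to 265 TPM. The 3 sperm markers were the higher there, at 72.5 and 71.5 TPM against 23.6 to 51.3 TPM. Pair 4 stands apart in the sums of these 4 lists and in ribosomal RNA. Its muscle, pharynx, intestine and epidermis sums overlapped those of pairs 1 to 3 over both treatments. Within each treatment, however, its intestine sum was the lowest. It was 4228 TPM against 4844 to 5783 TPM in DEET, and 4977 TPM against 5099 to 6254 TPM in DMSO. Its muscle, pharynx and epidermis sums were the lowest in neither treatment. Some sums rest mostly on a single gene: snb-1 (227 TPM on average) for neurons, vit-2 (5092 TPM) for intestine and col-19 (631 TPM) for epidermis. The strain gene col-121 was at 0.553 to 1.05 TPM in DEET and 0.332 to 1.15 TPM in DMSO.

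The 30 genes are spread over all 6 chromosomes, with 12 on chromosome V, 6 on X, 4 each on I and II and 2 each on III and IV. Chromosome V held 40.0% of them, against 25.0% of all protein-coding genes listed in the tables. The annotated proteins are 243 to 435 residues long, with a median of 314. They are encoded in 3 to 10 exons. The shortest gene is dhs-23, at 1053 bases with 3 exons and a protein of 276 residues. The longest is dhs-24, at 11863 bases with 6 exons. Of the 30 genes, 18 overlap another annotated gene and 14 overlap a protein-coding gene. No sequence is printed, because the genome and protein sequences were not used here.

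All 30 genes passed the expression filter, with mean levels over the 8 libraries from 0.297 TPM for dhs-16 to 145 TPM for dhs-22. There were 18 genes above 10 TPM, 10 between 1 and 10 TPM, and 2 below 1 TPM, which were dhs-15 and dhs-16. TPM is scaled for transcript length, so these levels can be set side by side. The summed level of the 30 genes was 1092 to 1212 TPM in DEET and 1107 to 1202 TPM in DMSO, so the total for the family overlapped between treatments.

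**Figure D1:**
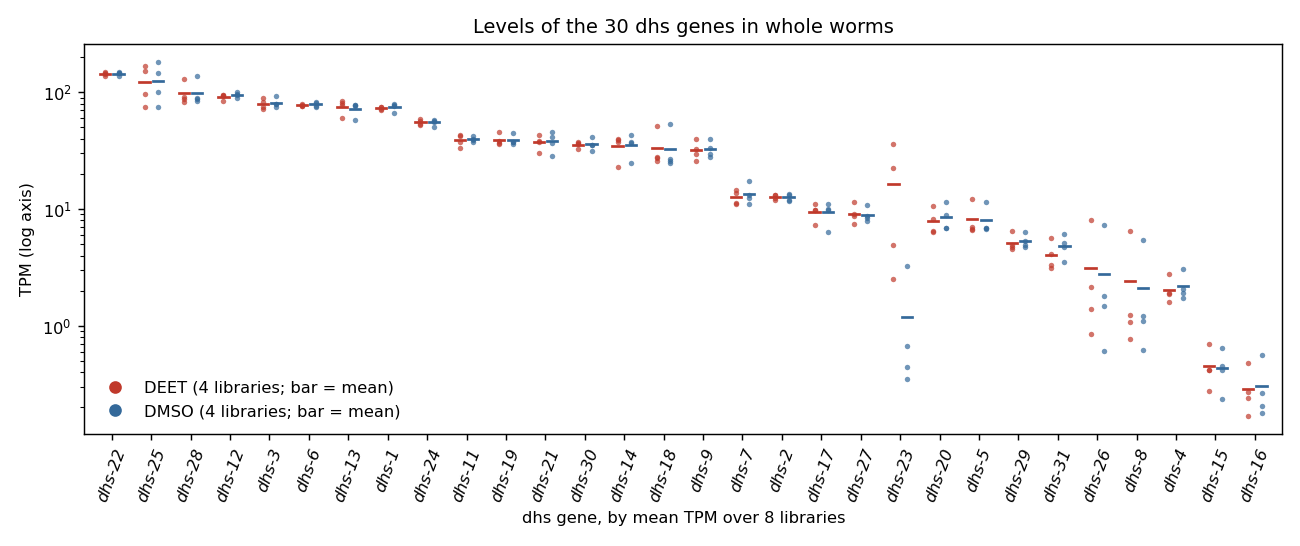
TPM on a log axis for each of the 30 dhs genes, with 4 DEET libraries and 4 DMSO libraries as points and their means as bars. For 29 genes the points of the treatments lie over each other, and dhs-23 is the gene whose DEET points, at 2.51 to 36.2 TPM, lie mostly above its DMSO points, at 0.353 to 3.28 TPM.

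Exposure to DEET was accompanied by a rise of a single dhs gene that passed the test. dhs-23 (R08H2.1, chromosome V, 15381219 to 15382271, plus strand) was called higher in DEET, with a fitted rise of 14.2-fold. None of the 30 was called lower. The other 29 genes did not pass the test. The question was whether a gene's level differed between DEET and DMSO within pairs. The test was edgeR's quasi-likelihood test on the deposited counts with the pair number as a block, and a gene was called at a Benjamini-Hochberg adjusted p under 0.05 over all genes tested. Of the 15496 genes tested, 0.0839% were called higher, so 1 of 30 rests on a single gene. The test called 0 genes lower, with 1 dhs gene lower at an unadjusted p under 0.05, and blocked DESeq2 called 2 genes lower (0.0129%), neither of them a dhs gene.

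dhs-23 stood at 22.5, 2.51, 4.96 and 36.2 TPM in the DEET libraries of pairs 1 to 4, against 0.672, 0.353, 0.443 and 3.28 TPM in the DMSO libraries of the same pairs. Within each pair DEET was the higher, but the treatments overlapped across pairs, because the DEET library of pair 2 lay below the DMSO library of pair 4. The TPM ratios within pairs 1 to 4 were 33.5, 7.10, 11.2 and 11.0. The corresponding counts were 753, 85, 163 and 1392 in DEET, against 24, 11, 15 and 124 in DMSO. The mean was 16.5 ± 15.8 TPM in DEET (SD, n = 4), against 1.19 TPM in DMSO (n = 4), where the SD was larger than the mean.

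The baseline of dhs-23 differed between pairs as well. In both treatments pair 2 was lowest, followed by pair 3, pair 1 and pair 4. The highest library was 14.4 times the lowest in DEET and 9.30 times in DMSO. Among the 30 genes dhs-23 ranked between 17 and 25 by TPM in the DEET libraries and between 27 and 29 in the DMSO libraries. It made up 0.230% to 2.99% of the summed TPM of the family in DEET and 0.0319% to 0.273% in DMSO.

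**Figure D2:**
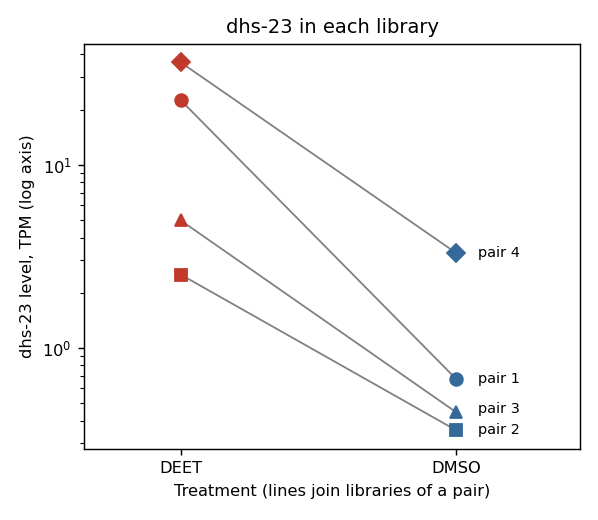
TPM of dhs-23 on a log axis in each DEET library (left) and each DMSO library (right), with lines joining the libraries of a pair. All 4 lines fall to the right, and pair 1, at 22.5 TPM in DEET and 0.672 TPM in DMSO, has the steepest.

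The blocked log2 fold change of dhs-23 was 3.83 ± 0.27 (SE), with a 95% interval of 3.20 to 4.46 and an edgeR adjusted p of 0.0031. It was higher in 4 of 4 pairs, with log2 CPM ratios of 4.96, 2.65, 3.31 and 3.44 in pairs 1 to 4 (SD 0.98). The SE and interval restate the test's F statistic and do not measure this spread between pairs. dhs-23 ranked 5 by fold among the 13 genes called. Blocked DESeq2, which called 0.116% of all genes higher, also called it, at 3.74 ± 0.46 (SE) with a DESeq2 adjusted p of 1.9e-12. With 1 pair left out at a time, the rise was smallest without pair 1, at 3.41 ± 0.15 with an edgeR adjusted p of 1.4e-08. The edgeR call was lost without pair 3 (3.90 ± 0.34, adjusted p = 0.124) and without pair 4 (4.21 ± 0.39, adjusted p = 0.0633), where the fitted change was not smaller. It was also lost without the block (3.78 ± 1.05, adjusted p = 1.00), without the expression filter (3.85 ± 0.34, adjusted p = 0.194) and, by limma with the block, on log2(TPM + 1) (2.59 ± 0.39, adjusted p = 0.504). On that last scale the pseudocount exceeds the level of 3 of the 4 DMSO libraries, which shrinks the fold. By limma with the block on log2(TPM + 0.1) dhs-23 was called (3.51 ± 0.34, adjusted p = 0.0312). Whether the pseudocount caused the lost call was not tested. Of 12 alternatives that differ from the reported fit, 6 called dhs-23 and 6 did not.

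The nearest protein-coding genes on each side of dhs-23, srh-251 at 1301 bases and str-88 at 167 bases, were at 0 counts in all 8 libraries. Protein-coding genes nearest to a dhs gene were taken only where they did not overlap it. Of these, 44 were tested and are not dhs genes themselves, and 1 was called, R05D8.9, which was higher.

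R05D8.9 lies within a run of 4 genes on the minus strand of chromosome V that includes 2 dhs genes. In order they are R05D8.7 (2761819 to 2763208), dhs-14 (R05D8.8, 2763981 to 2765200), R05D8.9 (2766232 to 2767565) and dhs-15 (R05D8.10, 2768361 to 2769854). The gaps between them are 772, 1031 and 795 bases, and their proteins have 279, 278, 280 and 277 residues. Neither dhs gene of the run passed the test, while R05D8.9 between them was called higher.

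dhs-14 was at 39.4, 22.8, 37.8 and 39.8 TPM in the DEET libraries of pairs 1 to 4, against 42.7, 24.7, 37.2 and 36.5 TPM in the DMSO libraries. The treatments overlapped fully, and pair 2 was the lowest in both. Fitted with the block, its log2 fold change was -0.02 ± 0.05 (SE), and the 95% interval ran from -0.14 to 0.10. R05D8.9 was at 2.78, 1.12, 2.19 and 2.16 TPM in DEET, against 0.478, 0.145, 0.300 and 0.448 TPM in DMSO. The counts behind these levels were low in DMSO, at 15, 4, 9 and 15, against 83, 34, 64 and 74 in DEET. Its ranges did not overlap, and the blocked log2 fold change was 2.59 ± 0.20 (SE; edgeR adjusted p = 2.9e-04), so its interval of 2.14 to 3.04 lies far above that of dhs-14. R05D8.7 had 8 to 32 counts per DEET library and 1 to 14 per DMSO library, with a log2 fold change of 1.37 ± 0.35 (SE) that did not pass (edgeR adjusted p = 0.693).

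dhs-15 was close to the detection limit, with 14, 9, 23 and 16 counts in DEET and 16, 13, 8 and 24 in DMSO. Its pairs disagreed in direction, with 1 of 4 higher in DEET, and its interval of -0.75 to 0.82 was wide. Changes of moderate size in either direction remain compatible with these counts. R05D8.7, dhs-14, R05D8.9 and dhs-15 are neighbours of similar size, and how reads are shared among similar genes in the authors' counting was not tested.

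**Figure D3:**
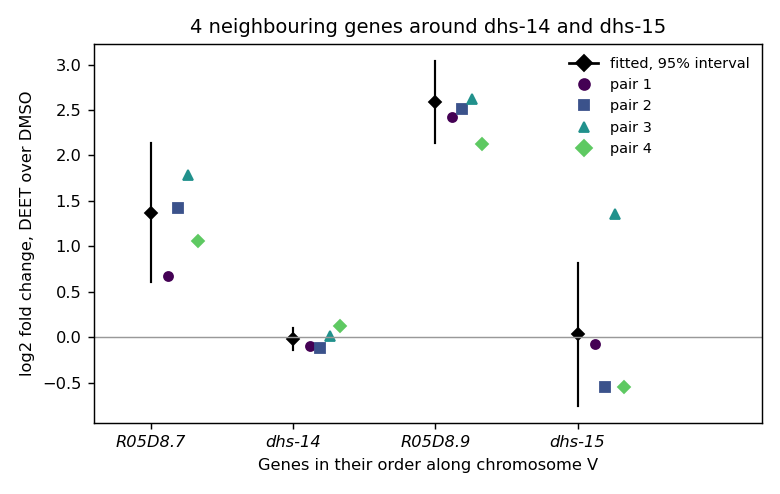
Log2 fold change (DEET over DMSO) of the 4 neighbouring genes in chromosome order, as the fitted value with its 95% interval (black) and the log2 CPM ratio of each pair (coloured). R05D8.9 lies above 2 in every pair, at 2.13 to 2.62, while dhs-14 stays between -0.12 and 0.13.

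Among the 29 dhs genes that were not called, 11 had a fold change above 0 and 18 below 0. Their log2 fold changes ran from -0.27 to 0.18. The median size of these changes was 0.031, against 0.049 over all genes tested. The median over all 30 dhs genes was -0.01, against 0.00 over all genes tested. The 95% interval lay within 0.2 of 0 on the log2 scale for 19 of the 29 and within 0.5 of 0 for 26. The remaining 3 were dhs-15, dhs-16 and dhs-31, which are low in expression or lie at the edge of the range. At an unadjusted p under 0.05 there were 2 of 30 dhs genes, dhs-23 and dhs-31, against 3.39% of all genes.

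**Figure D4:**
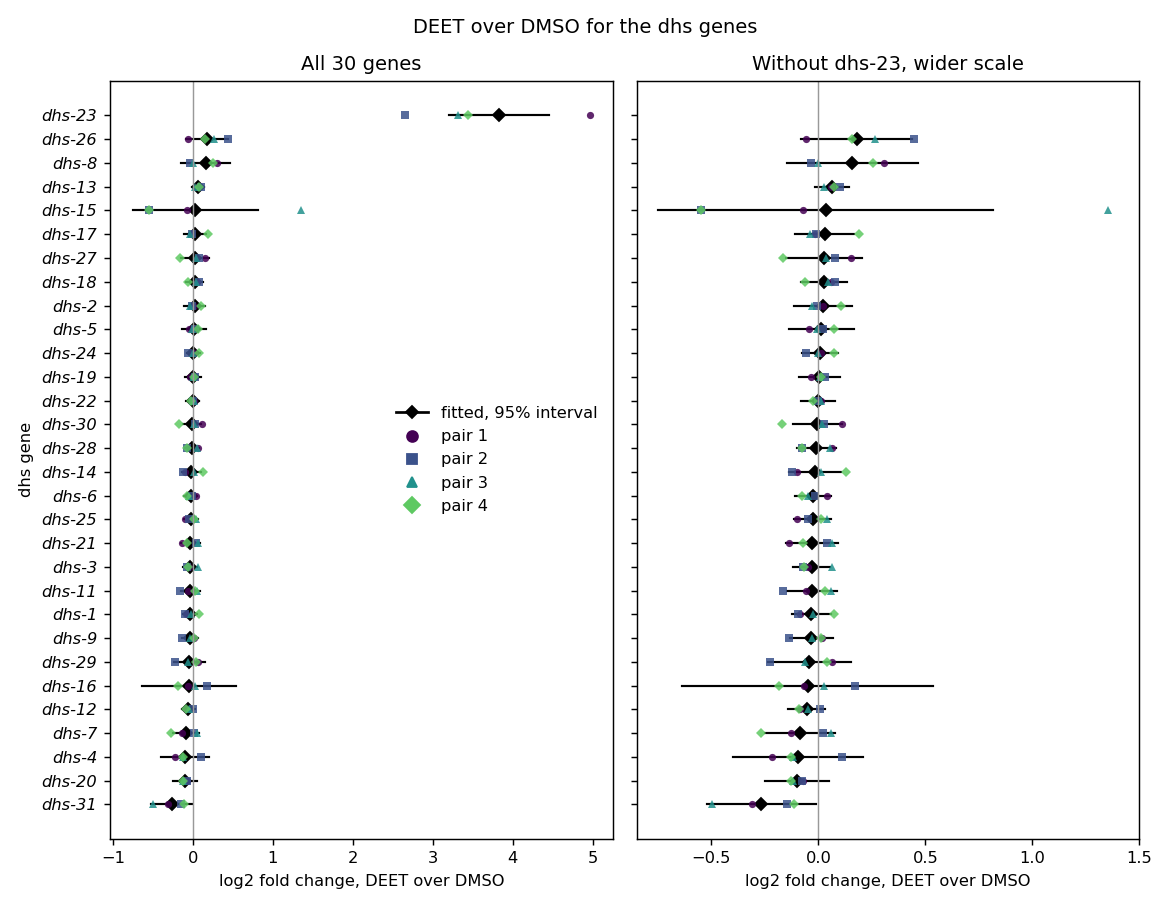
Blocked log2 fold change (DEET over DMSO) of the 30 dhs genes with 95% intervals (black) and the log2 CPM ratio of each pair (coloured), for all genes (left) and without dhs-23 on a wider scale (right). dhs-23 stands at 3.83, while the other 29 lie between -0.27 and 0.18.

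The most abundant dhs genes differed little between treatments. dhs-22, the highest, was at 137, 146, 151 and 145 TPM in DEET, against 138, 146, 148 and 148 TPM in DMSO. All 8 libraries lay close together, and the interval of its log2 fold change was -0.08 to 0.08. dhs-25, on chromosome X, was at 169, 97.6, 151 and 75.3 TPM in DEET, against 183, 101, 146 and 74.9 TPM in DMSO. Its level followed the pair and not the treatment, with pair 1 highest and pair 4 lowest in both, and its interval was -0.11 to 0.06.

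dhs-12 was at 83.9, 95.0, 93.7 and 94.0 TPM in DEET, against 90.2, 94.2, 96.2 and 100 TPM in DMSO, a log2 fold change of -0.06 ± 0.04 (SE). An annotated form of dhs-12 spans the glutathione S-transferase gene gst-4 on the same strand, with 645 shared bases. gst-4, which conjugates glutathione to reactive compounds, had a log2 fold change of -0.04 ± 0.05 (SE), so neither gene of the overlap was called. How the reads divide between them was not tested.

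The genes with a known role in the worm were not called either. dhs-3, the lipid droplet gene, was at 71.7, 89.6, 83.0 and 75.5 TPM in DEET, against 75.0, 93.8, 78.9 and 79.3 TPM in DMSO. Pair 2 was the highest in both treatments, and the interval of the log2 fold change was -0.12 to 0.06. dhs-3 shares 3621 bases with gla-3 on the opposite strand, and no source used here says if the counting used strand. gla-3 itself was at 0.05 ± 0.06 (SE, log2 fold change). Of 8 other lipid droplet genes, 0 were called, with log2 fold changes from -0.04 for the acyl-CoA synthetase gene acs-22 to 0.03 for the perilipin gene plin-1 and a median of 0.02.

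dhs-28, the peroxisomal ascaroside gene, was at 91.9, 83.1, 87.7 and 129 TPM in DEET, against 89.1, 87.4, 84.0 and 137 TPM in DMSO. Pair 4 was the highest in both treatments, and the interval of the log2 fold change was -0.10 to 0.08. Of 8 other genes of ascaroside side chain shortening, 0 were called, and the median log2 fold change was 0.00. The acyl-CoA oxidase gene acox-1.3 was the lowest of them at -0.20 ± 0.07 (SE), and the thiolase gene daf-22 was at 0.05 ± 0.04.

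dhs-21, the dicarbonyl and L-xylulose reductase gene, was at 37.3, 38.2, 30.2 and 43.3 TPM in DEET, against 41.5, 37.1, 28.6 and 45.7 TPM in DMSO. Pair 3 was the lowest in both, and the interval was -0.15 to 0.09. Of 3 other dicarbonyl genes, 0 were called. The glyoxalase gene glod-4 was at 0.02 ± 0.04 (SE, log2 fold change). The glyoxalase-type gene djr-1.2, at 1.06 TPM on average in DEET and 1.65 TPM in DMSO, had a log2 fold change of -0.62 ± 0.22 (SE) and did not pass.

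dhs-16, the dafachronic acid gene, had only 7, 10, 11 and 23 counts in DEET and 8, 8, 11 and 26 in DMSO. Its interval of -0.64 to 0.54 was wide, and changes within those bounds remain compatible with these counts. Of 7 other tested genes of dafachronic acid synthesis, transport and reception, 0 were called, with log2 fold changes from -0.12 for the P450 gene daf-9 to 0.03 for the P450 reductase gene emb-8.

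Among 12 named relatives of the dhs genes in steroid and fatty acid metabolism, 8 were tested and 0 were called. The median log2 fold change of the 8 was -0.03. The most abundant, the steroid dehydrogenase gene let-767, averaged 385 TPM in DEET and 395 TPM in DMSO, and its log2 fold change was -0.04 ± 0.04 (SE). The lowest value was -0.33 ± 0.23 for stdh-2, at 0.851 TPM in DEET and 1.07 TPM in DMSO. At an unadjusted edgeR p under 0.05 there were 0 of these relatives and 0 of the lipid droplet and dafachronic acid genes. There was 1 of the ascaroside genes (acox-1.3) and 1 of the dicarbonyl genes (djr-1.2). Blocked DESeq2 called 0 genes of the 5 lists. Over all genes tested, 3.39% had an unadjusted edgeR p under 0.05 and edgeR called 0.0839%. With calls this rare, 0 calls in lists this short do not set them apart from other genes.

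A few uncalled dhs genes stood at the ends of the range. dhs-31 (T04B2.6) was at 4.11, 3.15, 3.33 and 5.63 TPM in DEET, against 5.13, 3.50, 4.70 and 6.12 TPM in DMSO. It was the lower in DEET in 4 of 4 pairs while its ranges overlapped, and its log2 fold change of -0.27 ± 0.12 (SE) did not pass (edgeR adjusted p = 1.00). dhs-20 was also lower in 4 of 4 pairs, at 6.40, 6.52, 8.25 and 10.6 TPM in DEET, against 6.84, 6.86, 8.86 and 11.6 TPM in DMSO, with a log2 fold change of -0.10 ± 0.07 (SE). dhs-4, at 1.60 to 2.78 TPM in DEET and 1.75 to 3.04 TPM in DMSO, had a log2 fold change of -0.10 ± 0.14 (SE).

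At the upper end below dhs-23 were dhs-26 and dhs-8. dhs-26 was at 1.41, 0.848, 2.17 and 8.13 TPM in DEET, against 1.47, 0.609, 1.79 and 7.30 TPM in DMSO, with a log2 fold change of 0.18 ± 0.12 (SE) and 3 of 4 pairs higher. dhs-8 was at 0.772 to 6.52 TPM in DEET, against 0.626 to 5.46 TPM in DMSO, with pair 4 the highest and pair 1 the lowest in both, with a log2 fold change of 0.16 ± 0.14 (SE) and 2 of 4 pairs higher. In both genes the step to pair 4 was far larger than the difference between treatments. In all, 4 of 30 dhs genes (dhs-13 and dhs-23 higher, dhs-20 and dhs-31 lower) moved the same way in 4 of 4 pairs, against 10.3% of all genes tested. The TPM ranges of the treatments failed to overlap for 0 of 30, against 0.484% of all genes.

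More dhs genes were called between pairs than between treatments. A quasi-likelihood test of the 3 pair terms in the same fit called 24 of 30 dhs genes, and the background was 64.9% of all genes tested. The 6 genes that did not pass were dhs-1, dhs-2, dhs-6, dhs-12, dhs-15 and dhs-22. Without pair 4 the test called 9 of 29, against 19.5% of all genes: dhs-3, dhs-9, dhs-14, dhs-20, dhs-21, dhs-23, dhs-25, dhs-26 and dhs-27. The median size of the step between pair 4 and the mean of pairs 1 to 3 was 0.40 on the log2 CPM scale for the dhs genes and 0.38 over all genes tested.

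Pair 4 held the highest mean log2 level of 20 dhs genes and the lowest of 6, against 46.0% and 36.7% of all genes. Its TPM was above that of pairs 1 to 3 by 5.97 times for dhs-8, 5.58 times for dhs-26, 3.77 times for dhs-23 and 2.35 times for dhs-16. dhs-18 was at 51.3 TPM (DEET) and 53.7 TPM (DMSO) in pair 4, a level 1.98 times that of pairs 1 to 3, where it was at 25.0 to 27.9 TPM. Lower in pair 4 were dhs-25, at 0.531 times, dhs-17, at 0.661 times, and dhs-13, at 0.750 times. In pair 4 the sums of the oocyte, germline and neuron markers given above were also lower, and within each treatment so was the intestine sum. The sum of the sperm markers and the share of ribosomal RNA were higher there. The part of the markers and of ribosomal RNA in these differences was not tested.

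The pair pattern recurred in both treatments. The order of the 4 pairs by TPM was the same in DEET and in DMSO for 14 of 30 dhs genes, among them dhs-8, dhs-18, dhs-20, dhs-23, dhs-25, dhs-26 and dhs-31, against 28.9% of all genes tested. For dhs-23 the pair means of log2 CPM spanned 3.44, beside a mean log2 CPM ratio between treatments of 3.59 on the same scale. The fitted log2 fold change, which is not on that scale, was 3.83.

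**Figure D5:**
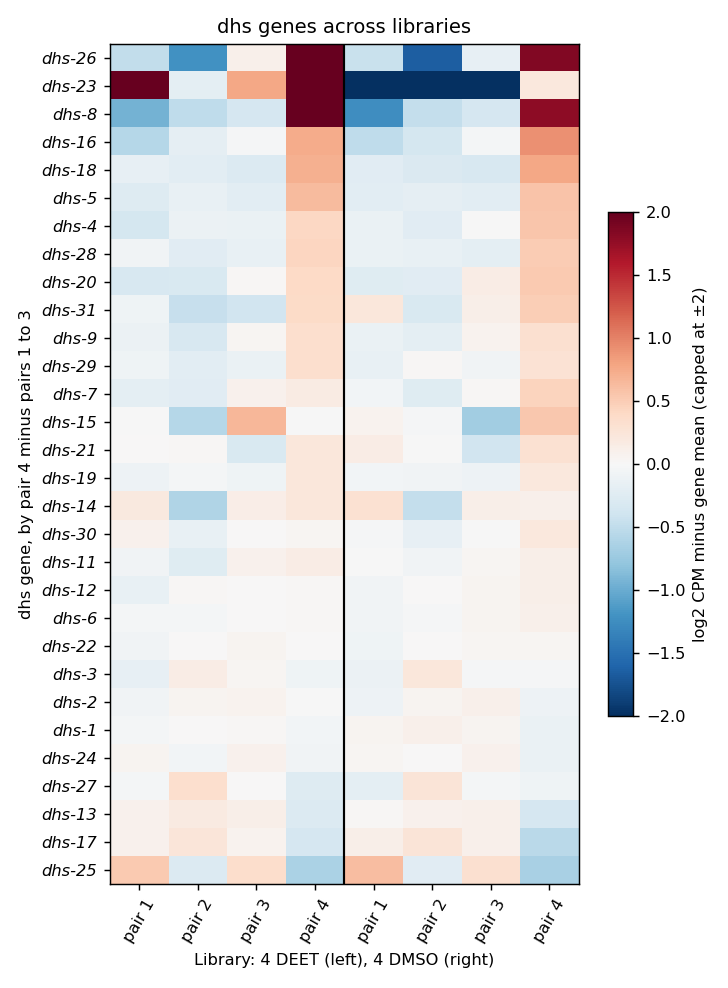
Log2 CPM of each dhs gene minus its mean over 8 libraries, in 4 DEET libraries (left) and 4 DMSO libraries (right), with genes ordered by the step between pair 4 and pairs 1 to 3 and colours capped at the limits shown. dhs-26, dhs-23 and dhs-8 head the order and dhs-25 ends it, and dhs-23 is the row that also differs between the left and right sides.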

How the data were processed

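Polyadenylated RNA of whole worms was sequenced as read pairs of 38 nucleotides, per the labels' protocols. The authors deposited raw counts per gene as whole numbers, and a table of TPM that sums to one total in every library. Salmon, DESeq2 and build WBcel235 are named in the submitters' processing notes, without versions or settings. Of 46244 identifiers, 46182 matched 1 annotated gene. Libraries are described as independent biological repeats.

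Counts were tested in R 4.3.3 with edgeR 4.0.16 (TMM, default filter by group, robust quasi-likelihood, pair as block). The SE restates the test's F statistic. DESeq2 1.42.0 and limma 3.58.1 (log2 TPM plus 1 or 0.1) served as alternatives. Log2 CPM ratios within pairs used a prior count of 2. Scripts were tested on simulated data.

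The labels mark the number as a batch. Deviations from group means correlated within pairs at 0.43, 0.71, 0.56 and 0.90. The lowest chi-square per gene within a group was 14.2, so no library repeats another of its group.

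The dhs genes, lists and naming rule (called, most abundant, extreme or of known role) were chosen with earlier results of these data known. A planned list of further short-chain dehydrogenases by protein motif was not analysed here, and the named relatives took its place. The legacy dispersion listed as an alternative was the tool's default, so the bias-adjusted form was added after the data were seen.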

Additional observations from a re-analysis of the deposited data

Results flagged for a closer look

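A library was singled out where, among the 4 of a treatment, the gap between its TPM and the nearest other, as a share of the whole range, was above Dixon's 95% critical value for 4 samples. This was examined for 30 genes in 2 treatments, 60 groups in all, and met in 12, of which 10 were in pair 4. Chance alone gives about 1 in 20, and the groups share libraries. The same count was not made over all genes tested, so the flags cannot be read as particular to the dhs genes. The pair test above called 64.9% of all genes tested. In pair 4 the library was the highest for dhs-5 (share of the range 0.913 in DEET and 0.964 in DMSO), dhs-8 (0.920 in DEET and 0.878 in DMSO), dhs-18 (0.925 in DEET and 0.926 in DMSO), dhs-19 (0.842 in DMSO), dhs-23 (0.891 in DMSO) and dhs-28 (0.903 in DMSO). It was the lowest for dhs-13 (0.873 in DMSO). Outside pair 4, the DEET library of pair 1 was the lowest for dhs-12 (0.877, at 83.9 TPM), and the DEET library of pair 2 was the lowest for dhs-14 (0.884, at 22.8 TPM).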

How the results depend on the processing

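The count of genes called between treatments was 13, all higher. It was 0 without the pair block (45 at an unadjusted p under 0.05), 20 by DESeq2 (2 of them lower), 30 without a filter (8 lower), 7 by limma on log2(TPM + 1) and 0 by limma with any gene above 0 TPM (758 at an unadjusted p under 0.05). With 1 pair left out it was 11 to 16, with 1 lower without pair 1 and 4 lower without pair 4. Of the dhs genes, 1 was called, against 0 in the fits without the block, without a filter, by limma on log2(TPM + 1) under either filter, and 0 to 1 with 1 pair left out. In these, the log2 fold change of dhs-23 was 3.78, 3.85, 2.59 and 2.59, and 3.41 to 4.21 with 1 pair left out, with adjusted p from 1.4e-08 to 0.124. Of 12 alternatives that differ from the reported fit, 6 called dhs-23, and all 12 put it above 0. The cause of the lost calls was not tested. Without the block, no other dhs gene's call changed. The pair effect was called for 2992 to 9884 genes and 9 to 23 dhs genes with 1 pair left out, the lowest of each being without pair 4 (10053 and 24 with all pairs). The named relatives had 0 calls in every fit run. Signs of uncalled genes near 0 turned: dhs-22 was above 0 by DESeq2 (0.010), with RLE size factors (0.010), without a filter (0.013) and with each pair left out (0.0087 to 0.013). dhs-28 did so by DESeq2 (1.5e-04), with RLE (1.6e-04), without a filter (0.0026) and without pair 2 or 4, ranging from -0.020 to 0.022 with 1 pair left out. dhs-21 (-0.041 to 0.022) and dhs-25 (-0.035 to 0.014) did so without pair 1. Low counts limit dhs-15 and dhs-16, and dhs-16 left the filter without pair 3 or 4.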
